A study of Mus musculus with 6 samples.

Results

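The solute carrier genes encode membrane proteins that move amino acids, sugars, ions, metals, nucleotides and other small molecules into cells, out of them or between their compartments. The genes described here are those whose symbol in the platform annotation begins with Slc followed by a digit, apart from Slc2a1, Slc2a3, Slc16a1, Slc16a3 and Slc28a1, which were left out. The annotation named 180 such genes, read by 247 probes, among 10252 named genes, and 174 of them could be tested among 9908. The other 6 (Slc15a1, Slc22a19, Slc25a23, Slc4a9, Slc5a11 and Slc9b2) lay below the detection limit on too many arrays. They were compared between 3 arrays labelled posterior and 3 labelled anterior. By the labels, both groups are total RNA from mouse limb lines made from embryonic day E10.5, described as mesenchyme from either side of the limb bud, and cells of both groups express a temperature-sensitive SV40 T antigen, which drives division. Neither line received another treatment that the labels name. They give neither the clones or embryos behind a line nor whether its arrays came from separate cultures. The p-values therefore cover only the spread among these arrays, and that spread may be technical.

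Carriers with a like sequence share a family number, and the substrate often follows the family. Amino acid carriers at the surface feed protein synthesis and growth signalling, and several run on the sodium gradient that the sodium pump maintains. SLC25 proteins sit mostly in the inner mitochondrial membrane, where they exchange nucleotides, phosphate, organic acids and cofactors with the cytosol. Zinc is carried by opposed families, since Slc30 proteins move it out of the cytosol, into vesicles or out of the cell, and Slc39 proteins move it into the cytosol. The ion carriers include chloride cotransporters (Slc12), bicarbonate carriers (Slc4), sodium-calcium exchangers (Slc8 and Slc24) and phosphate carriers (Slc20 and Slc34).

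Levels are normalized log2 intensities, in which a step of 1 is a doubling, and a level is compared only with the same probe on another array. A probe was called detected where its detection p-value was under 0.05, and tested where it was detected on at least 3 of the 6 arrays. Of 45281 probes, 16052 to 18657 were detected on an array, and arrays correlated at 0.971 to 0.989 within a group and at 0.882 to 0.905 between groups across the tested probes. A gene is called higher or lower in the posterior line where its adjusted p by limma was under 0.05. Of the limb mesenchyme markers searched for, 4 of 11 were named and tested, all 4 were higher in the posterior line, and 1 of them was detected on no anterior array. Their summed level was 8.47 to 9.26 in posterior arrays and 7.05 to 7.27 in anterior arrays, while the defining markers Prrx1 and Tbx5 are not named here. Msx1, a limb bud factor, measured 6.65, 7.40 and 7.47 in posterior arrays, against 5.09, 5.26 and 4.87 in anterior arrays. All 10 pluripotent cell markers were lower in the posterior line, with a median difference of -3.71. Pou5f1, a factor that defines pluripotent cells, measured 7.24, 6.85 and 6.39 in posterior arrays and 11.63, 11.73 and 11.50 in anterior arrays, 27.8-fold lower, and Nanog was 10.1-fold and Esrrb 21.6-fold lower. The summed level of this list was 13.41 to 14.0 in posterior arrays and 15.31 to 15.35 in anterior arrays, most of it from Dppa5a, which was 1.69-fold lower. Tdgf1 and Fgf4 were detected on no posterior array. The arrays labelled anterior thus held the higher levels of every pluripotency marker and the lower levels of every limb marker tested, which goes against their label as limb mesenchyme. Both groups are called by their labels throughout, and a difference is one between the arrays so labelled. Markers of surface ectoderm were tested for 3 of 7 genes, with 2 higher, Krt8 (12.8-fold) and Krt18 (19.7-fold), while Cdh1 did not pass. Both are epithelial keratins, at 10.75 to 11.65 and 10.26 to 11.08 in posterior arrays. Dppa5a, Esrrb, Nanog and Pou5f1 were also detected on all 3 posterior arrays. These lists therefore do not establish the posterior arrays as limb mesenchyme either. Markers of endothelium were tested for 2 of 5 genes, with 1 lower. The neural marker Nes was higher, and no blood marker was tested. The part of these differences in the carrier results was not tested. In such bulk RNA, fewer cells of a type and less RNA per cell cannot be told apart.

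Solute carriers differed between the lines about as often as other genes, and as often in one direction as in the other. Of the 174 tested, 44 (25.3%) were higher in the posterior line, where 25.9% of all tested genes were, and 42 (24.1%) were lower, where 21.5% of all tested genes were. Past the threshold in either direction were 49.4% of the carriers and 47.4% of all genes. These shares lie near the background, so the total is no result about carriers. Differences reached from -3.78 to 3.79 with a median of -0.06, beside 0.03 over all genes. At least 2-fold differences past the threshold were found for 19 higher carriers, where 11.7% of all genes had them, and for 21 lower carriers, where 7.83% of all genes did. The 3 posterior and 3 anterior arrays did not overlap for 58.0% of the carriers, with 58.3% of all genes as the background. When arrays were scaled to a common median in place of quantile normalization, the median difference of all genes was 0.20 in place of 0.03, and the higher share of the carriers called was 61.4% in place of 51.2% (72.1% in place of 54.7% over all genes).

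**Figure D1:**
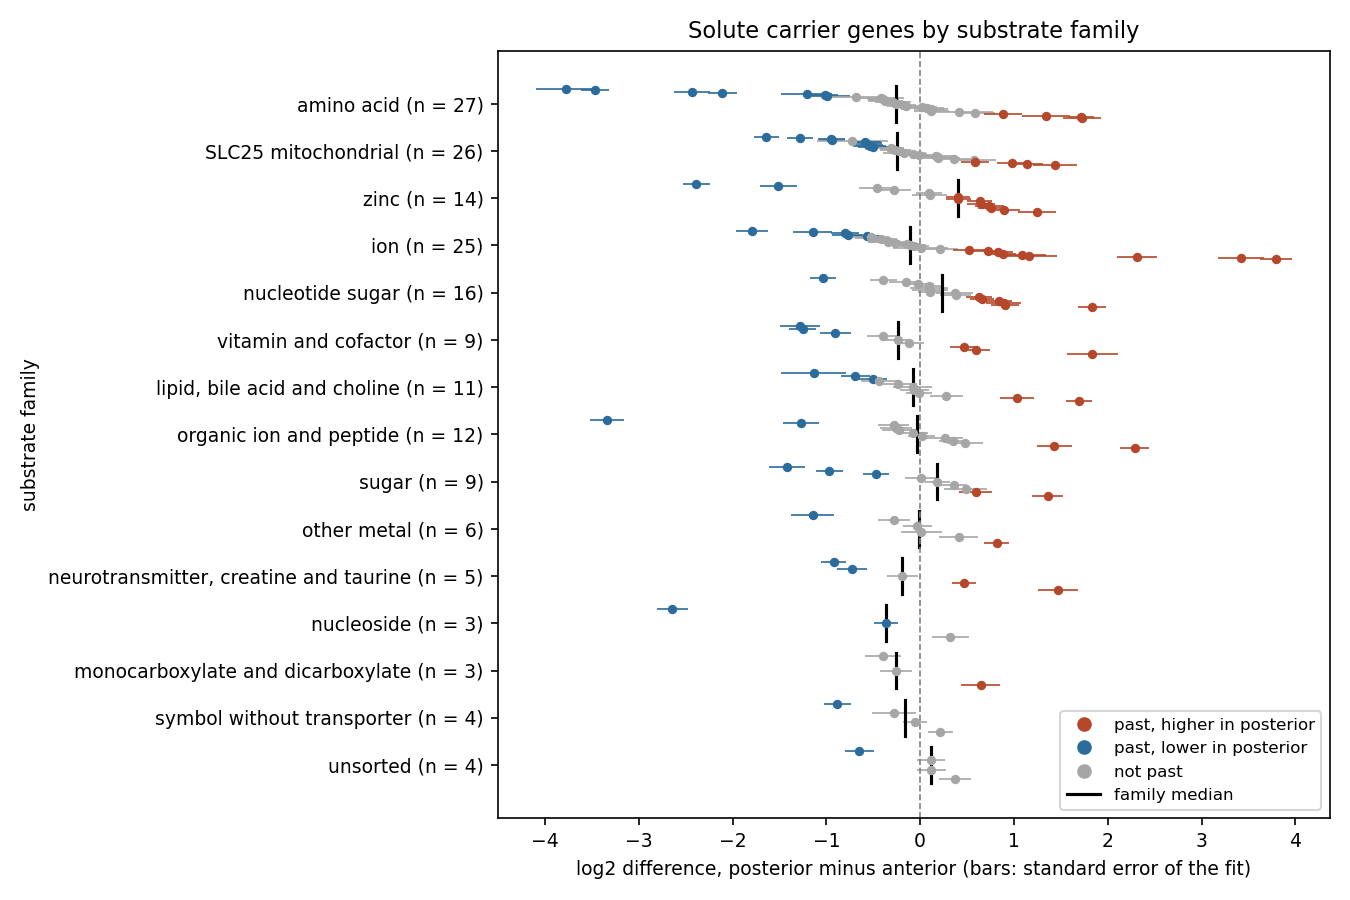
Differences between the lines for the tested solute carriers, by substrate family. Each point is 1 gene at its posterior minus anterior difference in normalized log2 intensity, with the standard error of the fit as a bar, coloured by its call, and a black line is the family median. Among the 4 families in the top rows, zinc carriers have a median of 0.41, against -0.26 for amino acid, -0.24 for SLC25 and -0.11 for ion carriers.

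The split by direction varied among the families, where 25.9% of all tested genes were higher and 21.5% lower. Zinc carriers were mostly higher in the posterior line, with 8 of 14 higher (57.1%) and 2 lower (14.3%). In each fit that left out 1 array, 6 were higher. The SLC25 carriers held 4 higher (15.4%) and 9 lower (34.6%) among 26. That lean was lost under median scaling (5 higher, 4 lower), without posterior array 3 (4 and 4) and without anterior array 2 (5 and 5). The amino acid carriers held 4 higher (14.8%) and 7 lower (25.9%) among 27. Ion carriers held 9 higher (36.0%) and 5 lower (20.0%) among 25. The lower shares of these families lay near that of all genes. Median differences were 0.41 for zinc, -0.24 for SLC25, -0.26 for amino acid and -0.11 for ion carriers. With the genes detected in 1 line alone set at their bound, only the zinc median among these 4 changed, to 0.40. A carrier seen in 1 line alone has to differ to be tested at all. All 6 arrays detected 128 of the carriers, and 81.2% of all tested genes. Of those 128, 19.5% were higher and 27.3% lower, where 22.0% and 23.1% of all such genes were. The higher zinc carriers numbered 6 of 11 there, and the lower SLC25 carriers 9 of 23. These counts describe small families and carry no test of their own.

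Among the carriers with the largest differences were 2 amino acid carriers of the Slc7 family, both lower in the posterior line. Slc7a3, a surface carrier that brings arginine and lysine into cells, measured 7.09, 6.90 and 8.23 on the posterior arrays, against 11.00, 11.22 and 11.34 on the anterior arrays. All 3 anterior arrays lay far above every posterior one. The difference was -3.78 (SE 0.32, adjusted p = 3.86e-05), or 13.7-fold lower. The probe's deposited intensities, before any correction, were 228.0, 165.7 and 333.0 in posterior arrays and 1789.0, 3081.9 and 2521.5 in anterior arrays. A second, dim Slc7a3 probe was detected on no posterior array and has only a bound there, and averaging both probes at their measured levels gave -2.17. Slc7a7, which pairs with the Slc3a2 heavy chain and exchanges cationic for neutral amino acids, measured 5.41, 5.51 and 5.37 in posterior arrays and 8.82, 9.14 and 8.73 in anterior arrays. The groups were again widely separate. Slc7a7 was 11.1-fold lower (difference -3.47, SE 0.15, adjusted p = 1.69e-06), and its second probe differed by -3.12.

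Other lower amino acid carriers take up neutral or acidic amino acids. Slc6a15, a sodium-coupled carrier of branched neutral amino acids, measured 4.83, 4.70 and 4.85 in posterior arrays, where 2 of 3 detected it, and 7.43, 6.81 and 7.44 in anterior arrays. It was 5.41-fold lower (SE 0.19 of the log2 difference, adjusted p = 2.66e-05), and its dimmer probe differed by -0.92. Slc1a1, which takes up glutamate, aspartate and cysteine, was detected on all 3 anterior arrays, at 6.24 to 6.73, and on no posterior array. For such a gene only a bound can be given, in which a dim array counts at its lowest detected signal (4.70 to 4.91) or at the probe's own level where that is higher. By that bound Slc1a1 was at least 3.34-fold lower in the posterior line (adjusted p = 2.06e-05). Such a gene passed the detection filter through the line in which it is high, so its adjusted p is no separate support. Each such bound here also rests on the background correction, without which the log2 difference of Slc1a1 was -1.15. Slc1a4, a carrier of alanine, serine and cysteine, measured 5.94, 6.65 and 7.15 in posterior arrays, against 7.66, 7.84 and 7.87 in anterior arrays. Its posterior arrays spread widely and still lay below the anterior ones (difference -1.21, SE 0.27, adjusted p = 0.00738). Slc38a2, an uptake carrier for glutamine and alanine, measured 9.50, 9.42 and 9.62 in posterior arrays and 10.49, 10.36 and 10.73 in anterior arrays. The groups were tight and separate, and it was 2.02-fold lower (difference -1.02, SE 0.15, adjusted p = 0.000777). Its relative Slc38a1 was lower by its brighter probe (-0.99, SE 0.25, adjusted p = 0.0115), but not by the mean of its probes (-0.50, adjusted p = 0.0783). The Slc38a1 call was also lost under median scaling (-0.75, adjusted p = 0.0623), with no detection filter (adjusted p = 0.0591) and without posterior array 2 (-0.87, adjusted p = 0.0512).

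Among the 4 amino acid carriers that were higher in the posterior line, Slc38a5 was detected in the posterior line alone, and Slc32a1 and Slc17a7 were missed by some anterior arrays. Slc32a1, which loads GABA and glycine into synaptic vesicles, measured 6.95, 6.29 and 6.72 in posterior arrays, against 5.18, 4.74 and 4.85 in anterior arrays, where 2 of 3 detected it. It was 3.31-fold higher (difference 1.73, SE 0.20, adjusted p = 0.000239). Slc38a5, a glutamine carrier, measured 6.23, 5.95 and 6.19 in posterior arrays and was detected on no anterior array. The bound put it at least 2.44-fold higher (adjusted p = 2.72e-05), and its log2 difference was 0.88 without background correction. Slc7a4, which resembles the cationic amino acid carriers, was also higher (difference 0.88, SE 0.20, adjusted p = 0.00814). Slc17a7, the vesicular glutamate carrier, measured 6.54, 6.38 and 6.06 in posterior arrays and was detected on 1 of 3 anterior arrays (difference 1.34, SE 0.26, adjusted p = 0.00328). The remaining 16 amino acid carriers did not pass. Slc1a3, a glial glutamate carrier, was scattered, at 7.49, 9.10 and 8.50 in posterior arrays and 7.67, 7.93 and 8.25 in anterior arrays. Its arrays overlapped (difference 0.41, SE 0.36, adjusted p = 0.400), and it passed only when posterior array 1 was left out (0.86, adjusted p = 0.0273).

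**Figure D2:**
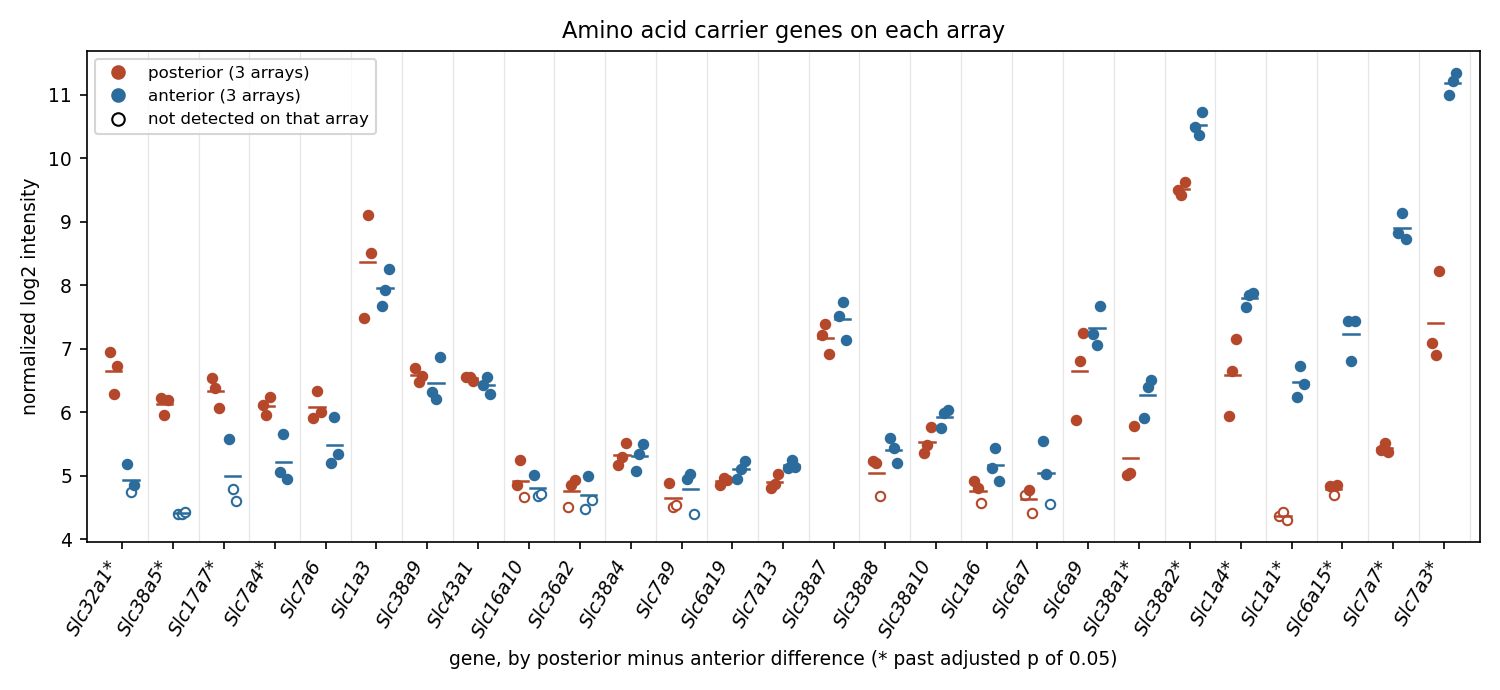
Normalized log2 intensity of amino acid carriers on each array, posterior arrays left of anterior ones for each gene. Filled points were detected, hollow points were not, a short line is the group mean, and an asterisk marks an adjusted p under 0.05. Slc7a3 and Slc7a7 show the widest gaps, with every anterior array above every posterior one.

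Carriers of the SLC25 family were mostly well detected, with 23 of 26 on all arrays. Differences of at least 2-fold past the threshold were found for 2 higher and 2 lower carriers. Of all tested genes 11.7% and 7.83% had such differences. The single largest was on the lower side. Slc25a12, the aspartate-glutamate carrier of the malate-aspartate shuttle, measured 5.98, 6.25 and 6.19 in posterior arrays, against 7.82, 7.71 and 7.81 in anterior arrays. It was 3.12-fold lower (difference -1.64, SE 0.13, adjusted p = 3.42e-05), with -1.28 by its second probe. Slc25a26 brings S-adenosylmethionine, the methyl donor, into mitochondria. It measured 6.83, 6.90 and 7.09 in posterior arrays and 8.13, 8.25 and 8.29 in anterior arrays. The groups lay apart (difference -1.28, SE 0.14, adjusted p = 0.000141). Slc25a33, a pyrimidine nucleotide carrier, measured 7.40, 7.72 and 7.72 in posterior arrays, against 8.63, 8.61 and 8.44 in anterior arrays (difference -0.95, SE 0.15, adjusted p = 0.00112). Slc25a5, an ADP/ATP exchanger, had a bright probe, at 12.34, 12.05 and 12.22 in posterior arrays and 13.15, 13.08 and 13.20 in anterior arrays. The groups did not overlap (difference -0.94, SE 0.13, adjusted p = 0.000764).

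The other 5 lower SLC25 carriers differed less. Slc25a3, which imports phosphate for ATP synthesis, measured 10.16, 10.26 and 10.27 in posterior arrays and 10.70, 11.13 and 10.58 in anterior arrays (difference -0.58, SE 0.17, adjusted p = 0.0232). Slc25a1, which exports citrate, differed by -0.58, Slc25a39, linked to mitochondrial glutathione import, by -0.56, Slc25a20, the carnitine-acylcarnitine carrier, by -0.54, and Slc25a16 by -0.50. None of these 5 passed under median scaling, under which 4 SLC25 carriers were lower in the posterior line in place of 9. Leaving out an array also thinned the count, to 5 without posterior array 2, 4 without posterior array 3 and 5 without anterior array 2. Slc25a12, Slc25a26, Slc25a33 and Slc25a5 passed in each of those fits.

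The 4 higher SLC25 carriers differed by 0.59 to 1.44. Slc25a10, the dicarboxylate carrier, measured 6.78, 6.86 and 6.93 in posterior arrays, against 5.79, 6.0 and 5.38 in anterior arrays. The difference was 1.13 (SE 0.18, adjusted p = 0.00115). Slc25a24, a carrier that exchanges ATP-magnesium for phosphate, measured 5.91, 6.33 and 6.03 in posterior arrays and was detected on 1 of 3 anterior arrays (difference 1.44, SE 0.23, adjusted p = 0.00139). Slc25a47 was higher as well (difference 0.98, SE 0.16, adjusted p = 0.00134), and so was Slc25a53 (0.59, SE 0.15, adjusted p = 0.0130), which was lost without posterior array 2 (0.53, adjusted p = 0.0573). Of the 13 that did not pass, Slc25a38, a carrier used in heme synthesis, lay at 9.57, 9.66 and 9.68 in posterior arrays and 10.02, 10.04 and 9.77 in anterior arrays. Its groups did not overlap, but the difference of -0.31 missed the threshold (adjusted p = 0.102). Slc25a36 varied mainly among the anterior arrays, at 8.54, 7.56 and 9.24, and passed when anterior array 2 was left out (-1.15, adjusted p = 0.00977).

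**Figure D3:**
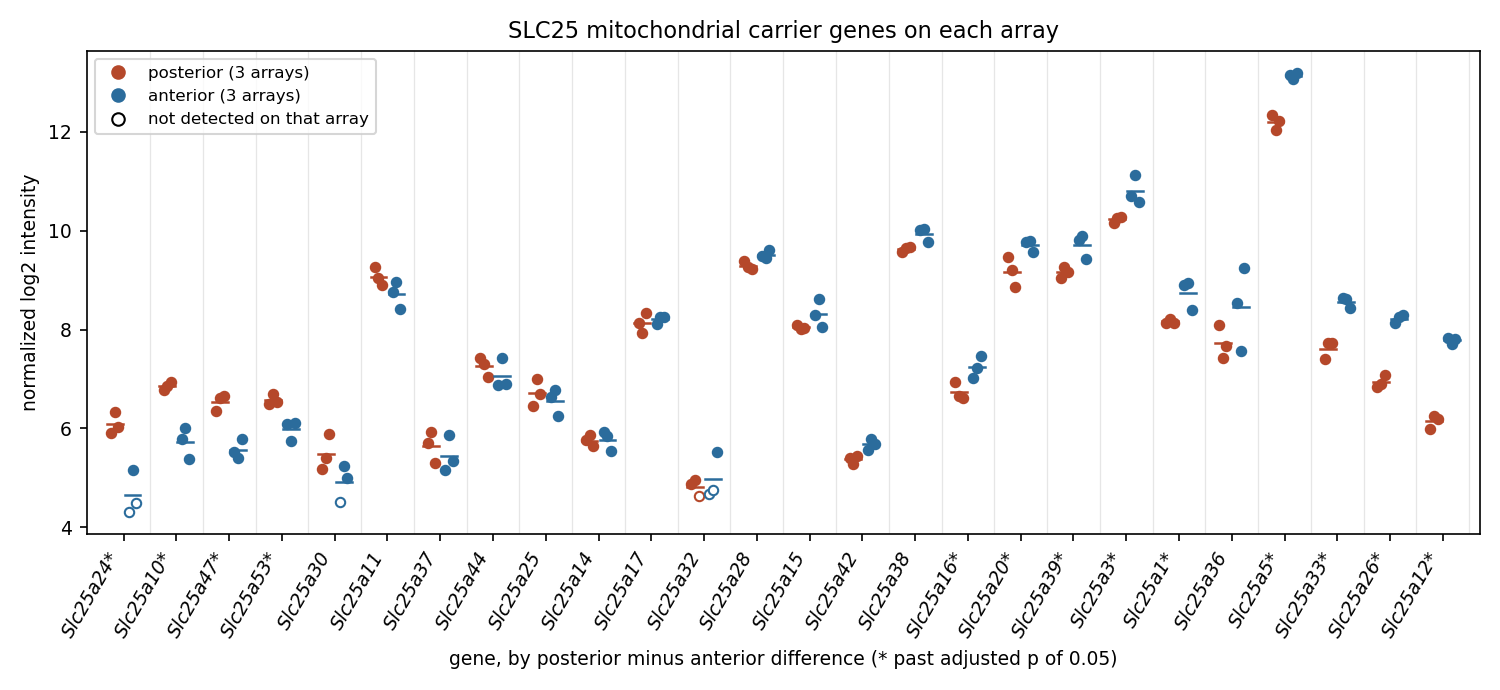
Normalized log2 intensity of SLC25 mitochondrial carriers on each array, posterior arrays left of anterior ones for each gene. Filled points were detected, hollow points were not, a short line is the group mean, and an asterisk marks an adjusted p under 0.05. Slc25a5 sits between 12.05 and 12.34 in posterior arrays, below all 3 anterior arrays.

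Zinc carriers of both directions of transport were found on the higher and on the lower side. Of the 7 Slc39 importers of the cytosol 5 were higher and 1 lower in the posterior line. Of the 7 Slc30 exporters 3 were higher and 1 lower. Among all tested genes 25.9% were higher and 21.5% lower, and the difference in shares was not tested. The lower gene of each kind had the largest difference in its family. Slc30a2, which fills vesicles with zinc, measured 5.84, 5.50 and 5.65 in posterior arrays, against 7.99, 8.13 and 8.03 in anterior arrays. It was 5.22-fold lower (SE 0.14 of the log2 difference, adjusted p = 6.30e-06). Slc39a4, the importer of dietary zinc in the intestine, measured 8.60, 8.06 and 7.85 in posterior arrays and 9.68, 9.71 and 9.66 in anterior arrays. The anterior arrays were nearly equal and all above the posterior ones (difference -1.51, SE 0.19, adjusted p = 0.000418).

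On the higher side, Slc30a3, which loads zinc into synaptic vesicles, measured 7.83, 7.08 and 7.21 in posterior arrays, against 6.02, 6.14 and 6.21 in anterior arrays. It was 2.37-fold higher (difference 1.25, SE 0.20, adjusted p = 0.00141). Slc39a6, a surface importer, measured 8.20, 8.59 and 8.43 in posterior arrays and 7.32, 7.78 and 7.44 in anterior arrays (difference 0.89, SE 0.17, adjusted p = 0.00343). Slc39a7, which releases zinc from the endoplasmic reticulum, measured 9.80, 9.95 and 9.86 in posterior arrays, against 9.20, 9.24 and 8.90 in anterior arrays. These groups were tight and did not overlap (difference 0.76, SE 0.14, adjusted p = 0.00327), though the mean over its probes gave 0.50. Slc39a13, an importer of the secretory pathway, differed by 0.65 (SE 0.15, adjusted p = 0.00898) and Slc30a9 by 0.64 (SE 0.13, adjusted p = 0.00515). Slc39a3 was detected in no anterior array and was at least 1.31-fold higher (adjusted p = 0.00525). Its log2 difference was 0.35 without background correction. Slc30a7 (0.41, adjusted p = 0.0332) and Slc39a11 (0.40, adjusted p = 0.0354) were the weakest calls. Each was lost whichever array was left out, with adjusted p of 0.0540 to 0.112 for Slc30a7 and 0.0536 to 0.109 for Slc39a11, so that 6 zinc carriers were higher in each of those 6 fits.

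Slc30a1, the exporter at the cell surface, did not pass (difference -0.46, adjusted p = 0.0833), except without anterior array 1 (-0.68, adjusted p = 0.0180). Slc30a5, which loads the early secretory pathway, differed by 0.09 (SE 0.14, adjusted p = 0.616), and Slc30a6 and Slc39a1 did not pass either. The metallothioneins, cytosolic proteins that bind zinc and rise with it, were measured beside the carriers. Mt1 measured 13.36, 13.12 and 13.30 in posterior arrays, against 14.16, 14.29 and 14.25 in anterior arrays (difference -0.97, adjusted p = 0.000573). Mt2 measured 6.59, 6.39 and 6.59 in posterior arrays and 8.39, 8.78 and 8.80 in anterior arrays, 4.40-fold lower (adjusted p = 2.04e-05). Both metallothioneins were thus lower in the posterior line, with no overlap of the groups. Mtf1, the zinc sensor that binds metal response elements, differed by -0.01 (adjusted p = 0.956).

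**Figure D4:**
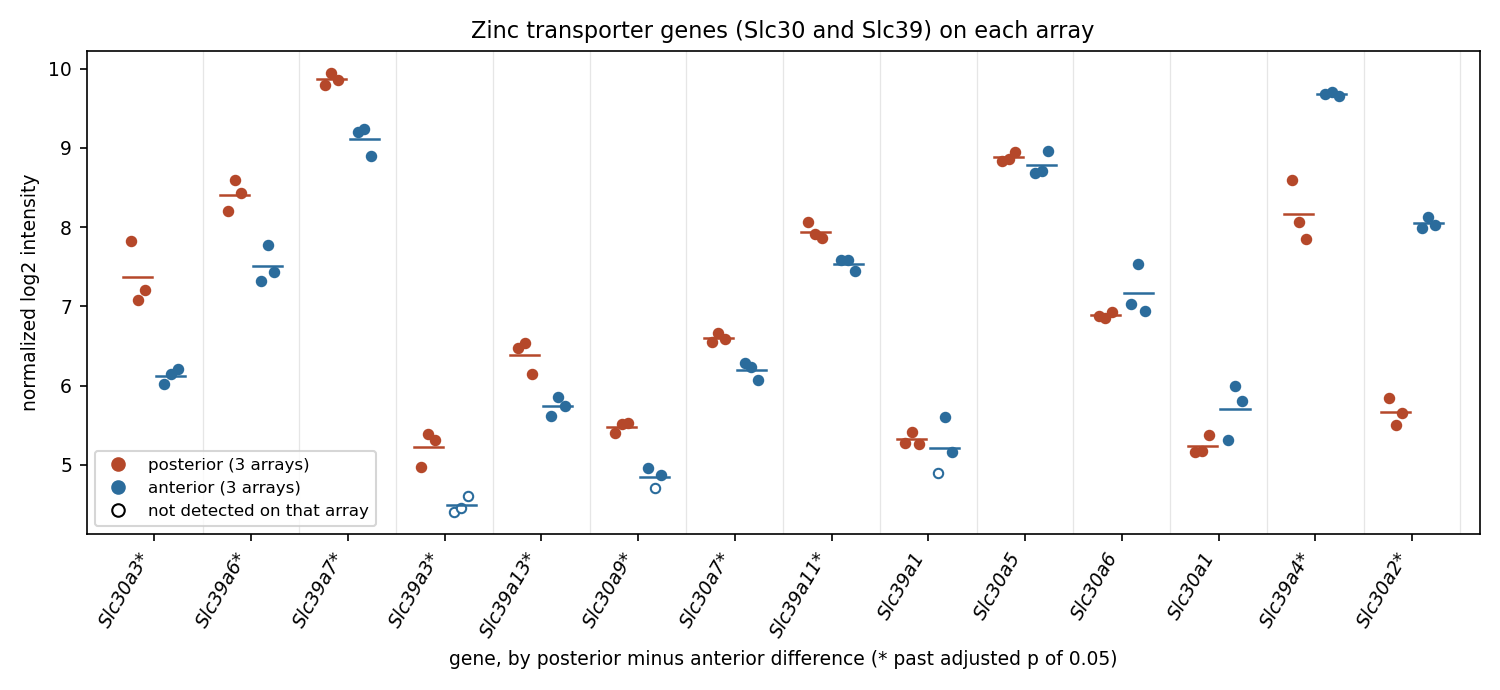
Normalized log2 intensity of the zinc carriers on each array, posterior arrays left of anterior ones for each gene. Filled points were detected, hollow points were not, a short line is the group mean, and an asterisk marks an adjusted p under 0.05. Slc30a2 and Slc39a4 lie lower in all posterior arrays, while Slc30a3, Slc39a6 and Slc39a7 lie higher.

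The promoters of zinc genes were read because metal response elements share a known core. The windows shown are picked examples. They belong to 2 carriers that were higher in the posterior line and to Mt2, which was lower. The same letters thus stand before genes of opposite direction. Each is the stretch just before the gene from RefSeq, build GRCm38.p6, 5′ to 3′ on the gene's strand, with matches to TGCGCNC or TGCACNC on either strand in capitals. That of Slc30a3 is chr5:31108245-31108494 on the minus strand, that of Slc39a3 is chr10:81037339-81037565 on the minus strand, and that of Mt2 is chr8:94172368-94172617 on the plus strand.
Slc30a3: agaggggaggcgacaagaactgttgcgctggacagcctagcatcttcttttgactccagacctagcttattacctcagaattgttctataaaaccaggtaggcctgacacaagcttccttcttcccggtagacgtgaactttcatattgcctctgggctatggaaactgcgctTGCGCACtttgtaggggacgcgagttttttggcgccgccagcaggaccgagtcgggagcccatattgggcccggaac
Slc39a3: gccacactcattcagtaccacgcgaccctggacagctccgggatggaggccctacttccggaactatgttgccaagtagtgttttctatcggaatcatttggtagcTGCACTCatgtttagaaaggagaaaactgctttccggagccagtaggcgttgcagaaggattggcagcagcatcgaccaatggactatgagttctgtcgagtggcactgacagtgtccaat
Mt2: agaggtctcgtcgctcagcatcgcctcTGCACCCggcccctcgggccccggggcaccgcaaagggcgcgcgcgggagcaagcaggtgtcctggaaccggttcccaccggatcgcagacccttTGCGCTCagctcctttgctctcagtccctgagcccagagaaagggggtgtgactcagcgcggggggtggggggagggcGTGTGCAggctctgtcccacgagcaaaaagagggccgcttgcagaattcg
The match of Slc30a3 begins 77 bases before the gene, that of Slc39a3 121 bases before it, and those of Mt2 223, 128 and 50 bases before it. Another Slc30a3 promoter, chr5:31093478-31093777, holds no match. In the 300 bases around gene starts, 25.7% of 32851 mouse promoters hold this core, so it is common. Of the 14 zinc carriers 12 matched the promoter table, with 14 promoters, and 8 of these promoters, from 7 genes, hold it. Those genes are the higher Slc30a3, Slc39a3, Slc39a11 and Slc39a13, the lower Slc30a2, and Slc30a1 and Slc30a5, which did not pass. The higher Slc30a7, Slc30a9 and Slc39a7 hold none, nor do Slc30a6 and Slc39a1, which did not pass. The amino acid response core TGATGCA, searched in the same way, stands in 3.15% of all promoters and in 4 of 30 promoters of the 20 amino acid carriers that matched. Those 4 belong to Slc7a7 and Slc1a4, which were lower in the posterior line, and to Slc6a9, which did not pass. The Slc7a7 promoters that hold the core overlap and share the same site, so that site is counted more than once. The 4 promoters come from 3 genes. A match describes letters and does not show a working site.

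Ion carriers were among those with the largest higher differences. Slc13a4, which takes up sulfate with sodium, measured 8.44, 8.53 and 8.09 in posterior arrays and was detected on no anterior array. It was at least 11.5-fold higher (adjusted p = 2.02e-06), and its deposited intensities were 497.2, 414.6 and 306.1 in posterior arrays, against 66.3, 71.9 and 63.6 in anterior arrays. Slc24a3, a potassium-dependent exchanger of sodium for calcium, measured 7.23, 8.11 and 8.16 in posterior arrays and was likewise detected on no anterior array. The bound was at least 8.002-fold (adjusted p = 1.74e-05). These bounds rest on the background correction, without which the log2 differences were 2.47 for Slc13a4 and 2.13 for Slc24a3. Both genes passed the detection filter through the posterior line, so their adjusted p is no separate support. Slc5a5, the sodium-iodide symporter known from the thyroid, measured 8.17, 8.45 and 7.72 in posterior arrays, against 5.77, 6.06 and 5.58 in anterior arrays. All 6 arrays detected it, the groups lay more than a 2-fold step apart, and it was 4.95-fold higher (SE 0.21 of the log2 difference, adjusted p = 6.44e-05).

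Every tested Slc4 bicarbonate carrier was called higher, 4 of 4, with a median difference of 0.78, where 25.9% of all tested genes were higher. This difference in shares was not tested. Slc4a3 and Slc4a8 each have 3 tested probes, of which some did not pass, though both genes passed by the mean of the probes. Slc4a4, a sodium-bicarbonate cotransporter, measured 5.58, 6.19 and 6.68 in posterior arrays and 4.65, 4.90 and 5.41 in anterior arrays. Both groups were scattered without overlap (difference 1.16, SE 0.29, adjusted p = 0.0122). The Slc4a4 call was lost without anterior array 1 (1.02, adjusted p = 0.0504) and with no detection filter. Slc4a3, a chloride-bicarbonate exchanger, measured 7.01, 7.17 and 7.31 in posterior arrays, against 6.47, 6.09 and 6.43 in anterior arrays (difference 0.83, SE 0.16, adjusted p = 0.00318). Its relative Slc4a2 measured 8.97, 8.95 and 8.87 in posterior arrays and 8.22, 8.43 and 7.99 in anterior arrays (difference 0.72, SE 0.15, adjusted p = 0.00504). Slc4a2 and Slc4a3 stayed past the threshold whichever array was left out. Slc4a8, a sodium-driven exchanger, was weaker (difference 0.52, SE 0.17, adjusted p = 0.0398). Among the fits that left out 1 array it passed only without anterior array 1, with adjusted p of 0.0644 to 0.137 in the other 5. Slc4a8 was also lost with no detection filter, array weights or the replicate block. Outside Slc4, the sodium-calcium exchanger Slc8a1 was higher by 1.08 (SE 0.26, adjusted p = 0.0101), with 0.46 by the mean of its probes (adjusted p = 0.104), and Slc41a3, of a magnesium carrier family, by 0.88 (SE 0.14, adjusted p = 0.00115).

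Of the 7 genes of the Slc12 family, named for cotransporters that move chloride with sodium or potassium, 2 were lower and none was higher. Over all tested genes 21.5% were lower and 25.9% higher, and the difference in shares was not tested. Slc12a8 measured 5.93, 5.73 and 5.84 in posterior arrays, against 7.45, 7.97 and 7.45 in anterior arrays. It was 3.46-fold lower (difference -1.79, SE 0.17, adjusted p = 8.64e-05). Slc12a7, which lets potassium and chloride out of cells, measured 6.69, 6.87 and 7.03 in posterior arrays and 7.63, 7.83 and 7.52 in anterior arrays (difference -0.80, SE 0.15, adjusted p = 0.00308). That call was lost under median scaling (-0.52, adjusted p = 0.117). Slc12a2, which brings sodium, potassium and chloride in, lay at 9.40, 9.65 and 9.59 in posterior arrays and 9.55, 8.87 and 10.20 in anterior arrays. Its anterior arrays lay both above and below the posterior ones (difference 0.01, SE 0.29, adjusted p = 0.987). Stk39, a kinase that activates Slc12a2, measured 6.86, 7.66 and 7.25 in posterior arrays and was detected on 1 of 3 anterior arrays (difference 2.43, adjusted p = 5.12e-05).

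Phosphate and proton carriers made up the rest of the lower ion carriers. Slc20a1, a phosphate importer, was detected on no posterior array and measured 5.23, 5.98 and 5.42 in anterior arrays. It was at least 1.76-fold lower (adjusted p = 0.00238), and its log2 difference was -0.60 without background correction. Slc34a3, another phosphate importer, known from the kidney, differed by -0.77 (SE 0.17, adjusted p = 0.00593) and Slc9a8, a sodium-proton exchanger, by -0.57 (SE 0.14, adjusted p = 0.0112). Under median scaling both missed the threshold, at -0.59 (adjusted p = 0.0772) for Slc34a3 and -0.29 (adjusted p = 0.329) for Slc9a8. Slc12a3 (-0.14, adjusted p = 0.444) and the mitochondrial sodium-calcium exchanger Slc8b1 (-0.52, adjusted p = 0.0585) did not pass. Slc8b1 lay near the threshold and passed under 6 alternatives, with adjusted p of 0.0213 without posterior array 1, 0.0465 without anterior array 3, and 0.0329 to 0.0498 with array weights, trend and robust variances, the replicate block or the authors' values.

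**Figure D5:**
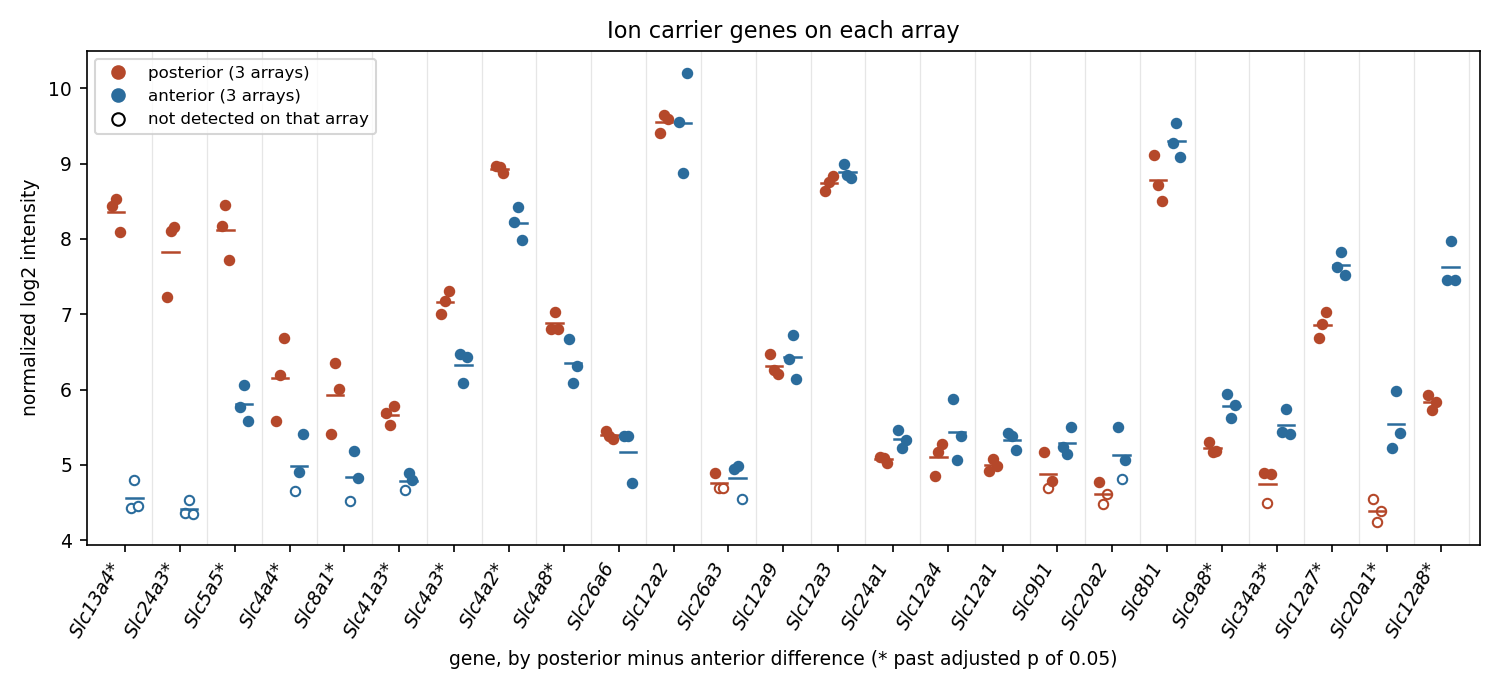
Normalized log2 intensity of ion carriers on each array, posterior arrays left of anterior ones for each gene. Filled points were detected, hollow points were not, a short line is the group mean, and an asterisk marks an adjusted p under 0.05. Slc13a4 and Slc24a3 are undetected on all 3 anterior arrays, and the Slc12a2 arrays of the lines overlap.

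The other families together held 82 tested genes, 19 higher and 19 lower, with a median difference of 0.00. Slc29a1, which equilibrates nucleosides across the surface membrane, measured 7.57, 7.22 and 7.19 in posterior arrays, against 10.06, 10.11 and 9.73 in anterior arrays. It was 6.24-fold lower (difference -2.64, SE 0.17), and its second probe differed by -2.74. Slc17a9, which loads ATP into vesicles, measured 4.76, 4.63 and 4.63 in posterior arrays, where 1 of 3 detected it, and 8.15, 8.26 and 7.64 in anterior arrays. It differed by -3.34 (SE 0.18, adjusted p = 4.50e-06) and was singled out after its values were seen. Further carriers lower by about 2-fold or more were Slc46a3 of the lysosome (-1.28), Slc47a1, which extrudes organic cations (-1.27), Slc52a3, a riboflavin importer (-1.25), Slc11a1, a metal carrier of phagosomes (-1.15), and Slc35f2 (-1.04). Slc45a4 differed by -0.97, though some of its 3 tested probes did not pass. Slc27a2, a very-long-chain acyl-CoA synthetase, differed by -1.14. Its call was lost without posterior array 2 or 3, or anterior array 1 or 2, with adjusted p of 0.0723 to 0.104. It was also lost under median scaling and with no detection filter. Slc37a1, of the sugar phosphate family, was detected on no posterior array and was at least 2.39-fold lower (adjusted p = 0.000532). Its log2 difference was -0.70 without background correction.

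Nucleotide sugar carriers of the Slc35 family, which supply the Golgi and endoplasmic reticulum, held 6 higher and 1 lower among 16, where 25.9% of all tested genes were higher and 21.5% lower. This difference in shares was not tested. Slc35c1, which carries GDP-fucose, differed by 0.91 (SE 0.15) and Slc35e3 by 0.89 (SE 0.18). Slc35b2 and Slc35b3, which carry the sulfate donor PAPS, differed by 0.84 (SE 0.14) and 0.66 (SE 0.13). Some of the 3 tested Slc35b3 probes did not pass, though the mean of the probes did. Slc35g2 was at least 2.39-fold higher (adjusted p = 3.50e-05). Slc27a3, an acyl-CoA synthetase named for fatty acid transport, had the largest higher difference in these families among genes detected on all arrays. It measured 8.17, 8.35 and 8.46 in posterior arrays, against 6.54, 6.65 and 6.70 in anterior arrays, and was 3.24-fold higher (difference 1.70, SE 0.14, adjusted p = 3.28e-05). Slc22a17, a receptor for lipocalin-bound iron, was higher by 1.43 (SE 0.19), and Slc48a1, a heme carrier, by 0.81 (SE 0.13). Slc22a23, detected on no anterior array, was at least 4.21-fold higher (adjusted p = 1.24e-05), and Slc23a3 at least 2.46-fold (adjusted p = 0.000871). Without background correction the log2 differences were 1.26 for Slc22a23, 1.03 for Slc23a3 and 1.04 for Slc35g2. Slc16a13 differed by 0.65 (adjusted p = 0.0330). Leaving out posterior array 2 or 3, or anterior array 1 or 3, lost the call, with adjusted p of 0.0513 to 0.108. It was also lost without background correction, with an offset of 50, the authors' values, no detection filter or the replicate block. Slc22a5, the carnitine importer, was the only member with probes past the threshold in opposite directions, so it has no direction here.

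Carriers that were detected in 1 line alone lay mostly on the posterior side, as did other such genes. No anterior array detected 11 of the carriers, where 5.39% of all tested genes were so, and no posterior array detected 3, where 1.18% were. Such genes passed the detection filter through the line in which they are high, so nothing is read from their calls. A further list held genes that work beside carriers and Slco carriers, whose symbols lie outside the rule. Among its 18 tested genes 5 were higher and 8 lower, with a median difference of -0.22. Of all tested genes 25.9% were higher and 21.5% lower. Atp1b1, a subunit of the sodium pump, measured 7.82, 8.52 and 8.37 in posterior arrays, against 10.02, 10.11 and 10.32 in anterior arrays (difference -1.91, adjusted p = 0.000129). Atp1b2 was lower (difference -0.86), while Atp1b3 was higher (0.45). Of the mitochondrial outer membrane channels, Vdac1 (-0.64) and Vdac2 (-0.80) were lower and Vdac3 (0.36) was higher. Slco4a1, an organic anion carrier, was lower (difference -2.55), while Slco3a1 was higher by 0.80 and Slco2a1, detected on no anterior array, by at least 1.39-fold.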

How the data were processed

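Total RNA of 6 samples, 3 labelled posterior and 3 labelled anterior, was read on 1-colour mouse bead arrays. The deposited table held a linear intensity per probe and array, not normalized between arrays, with a detection p-value beside it, per the file headers. A second table, of the authors' log2 values, held 18312 probes, those whose detection p-value fell below 0.01 on any array. These values equal quantile-normalized log2 intensities without background correction to within 5e-09. They are uncentred, with an array median of 7.06 throughout. Per the submitters' processing notes limma was used, its version not given in the sources used here.

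The function neqc (limma 3.58.1, R 4.3.3) normalized the intensities (background from the detection p-values, normexp, offset 16, log2, quantile), and the 18242 probes detected on at least 3 arrays were fitted with lmFit and eBayes. The p-values were adjusted by Benjamini-Hochberg over all tested probes. The offset makes folds of dim probes smaller than they are. Of the tested probes 7762 passed, 3865 higher and 3897 lower. SE is the standard error of the fit.

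Names came from the platform annotation, with 15550 probes of 1 symbol. All 180 member gene identifiers were found in RefSeq, and 0 symbols differed. Each gene is read by its brightest tested probe on average, and 48 members had several. In 12 of these some probes passed and others did not, and 1 had probes past in opposite directions. The text names, in each of the 4 families, the 4 largest differences each way among calls without overlap that 2 or more arrays per group detected, and the 3 highest levels. It adds the 8 largest of the other families and the 6 largest bounds in each direction, and other members of the 4 families. Genes that the text names outside these limits were picked after their values were seen. The members, lists, families and tests were chosen with earlier results of these data known. Alternatives were the background correction, offset, normalization, filter, variance model, probe rule, the authors' values, the replicate number as a block and leaving out each array. The steps were tested on simulated data. Plots used matplotlib 3.10.9 (Python 3.11.15). The number of arrays limits the precision.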

Additional observations from a re-analysis of the deposited data

How the results depend on the processing

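Of the 86 carriers past the threshold, 61 (34 higher, 27 lower) passed under each of the 16 alternatives that tested them, and none of the 86 turned its direction. Under median scaling 27 carriers were lower in place of 42, with 4 SLC25 and 2 ion carriers lower. With detection asked for on all 6 arrays, 25 carriers were higher in place of 44, with 1 amino acid and 4 ion carriers higher and 3 ion carriers lower. That fit tested 129 carriers. Array weights gave 8 lower ion carriers in place of 5. With no detection filter 6 ion carriers were higher in place of 9, and 6 SLC25 carriers were lower in place of 9. Leaving out 1 array gave 36 to 45 higher and 34 to 45 lower carriers, 3 to 5 higher and 4 to 8 lower SLC25 carriers, 4 to 5 and 6 to 9 for amino acid, 8 and 5 to 7 for ion, and 6 and 2 to 3 for zinc carriers. Samples of a group share replicate numbers with the other group. Same-numbered samples deviated together at 0.289, 0.162 and -0.0774, and differently numbered ones at -0.413 to 0.335. So few values cannot decide whether the numbers pair the samples. A fit with the replicate number as a block gave 45 higher and 42 lower carriers, and 4 calls were lost. No background correction, the authors' values and an offset of 50 made 43, 43 and 35 of the called differences smaller by over 1.5 times, and 19, 17 and 18 carriers were then past the threshold at 2-fold or more, in place of 40. Dim probes, near the lowest detected signal of 4.70 to 4.91, are the least certain.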
